A study of Mus musculus with 32 samples.

Results

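The transforming growth factor beta (TGF-β) pathway was followed in mouse tumors and lungs through 10 genes, namely the ligands *Tgfb1*, *Tgfb2* and *Tgfb3*, the receptors *Tgfbr1* and *Tgfbr2*, the signal transducers *Smad2* and *Smad3*, the inhibitor *Smad7*, and *Ppm1a* and *Hivep2*, the links of CLIC4 to Smad signaling. They were chosen by name, and all 10 of the 29511 genes in the count table were found by symbol and passed the filter on low counts in every fit. RNA was sequenced from female FVB/N mice, either *Clic4* wildtype (WT) or constitutive *Clic4* knockout (KO), bred as littermates from heterozygous intercrosses and used at 6 to 8 weeks of age. Tumor-bearing hosts of both genotypes carried 6DT1 cells, a mammary tumor explant line from an MMTV-Myc mouse that carries *Clic4* whatever the host, implanted in the fourth mammary fat pad. Primary tumors (6 from KO and 6 from WT hosts) and pre-metastatic lungs (6 KO and 6 WT) were taken 14 days later. Control lungs (4 KO and 4 WT), labeled as baseline, came from mice without a tumor. Only the host was *Clic4* deficient, so tumors of KO hosts were a mixture of *Clic4*-bearing cancer cells and deficient stroma. The labels give neither which tumor and lung came from the same mouse nor which mice were littermates, and p-values measure the spread between the samples of a group.

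TGF-β ligands are made as latent complexes and, once released, bind the type II receptor TGFBR2, which recruits and activates the type I receptor TGFBR1. The activated receptor phosphorylates SMAD2 and SMAD3, which enter the nucleus with SMAD4 and regulate target genes. SMAD7 is induced by the pathway and inhibits it. PPM1A is a phosphatase that removes the activating phosphates from SMAD2 and SMAD3, and CLIC4 in the nucleus is known to shield them from it. HIVEP2, also called Schnurri-2, is a zinc finger protein known to associate with CLIC4 and to carry it to the nucleus.

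The largest contrast among these genes lay between the tissues, and the start regions of 4 of them, a pair for each direction, are shown beside it. They were chosen after their letters and values were seen, and *Tgfbr1* and *Ppm1a*, also lower in tumors by at least as much as *Tgfbr2*, are described without their sequence. *Tgfb1* and *Smad3* were higher in tumors than in 14-day lungs, whereas *Tgfb2* and *Tgfbr2* were lower (values below). RefSeq start sites on GRCm38.p6 gave these stretches of 250 bases just upstream, written 5′ to 3′ on the gene's strand. Capitals mark the letters CAGAC, a core that Smad proteins bind, or GGGCGG, the GC box of Sp1-type factors, each searched on both strands (GTCTG and CCGCCC on the other strand), and neighboring matches can share bases. The windows lie at chr7:25686752-25687001 (plus strand) for *Tgfb1*, chr9:63757995-63758244 (minus) for *Smad3*, chr1:186705990-186706239 (minus) for *Tgfb2* and chr9:116175364-116175613 (minus) for *Tgfbr2*.
Tgfb1: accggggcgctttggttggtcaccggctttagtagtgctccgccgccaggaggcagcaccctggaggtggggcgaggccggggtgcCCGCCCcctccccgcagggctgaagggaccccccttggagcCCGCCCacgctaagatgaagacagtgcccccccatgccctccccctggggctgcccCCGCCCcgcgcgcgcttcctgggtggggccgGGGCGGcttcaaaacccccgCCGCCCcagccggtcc
Smad3: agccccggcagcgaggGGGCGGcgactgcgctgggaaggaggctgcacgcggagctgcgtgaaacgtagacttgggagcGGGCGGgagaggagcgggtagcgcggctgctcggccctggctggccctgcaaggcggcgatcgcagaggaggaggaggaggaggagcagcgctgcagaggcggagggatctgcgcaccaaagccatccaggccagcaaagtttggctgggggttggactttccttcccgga
Tgfb2: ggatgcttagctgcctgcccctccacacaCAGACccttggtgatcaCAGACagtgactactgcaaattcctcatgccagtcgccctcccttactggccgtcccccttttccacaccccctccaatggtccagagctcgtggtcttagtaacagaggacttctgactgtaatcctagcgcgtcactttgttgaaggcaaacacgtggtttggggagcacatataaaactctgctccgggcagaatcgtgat
Tgfbr2: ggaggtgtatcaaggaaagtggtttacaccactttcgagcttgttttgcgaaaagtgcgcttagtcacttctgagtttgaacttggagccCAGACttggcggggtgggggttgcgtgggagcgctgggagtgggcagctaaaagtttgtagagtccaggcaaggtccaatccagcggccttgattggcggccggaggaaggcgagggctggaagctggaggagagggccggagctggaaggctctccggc

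The *Tgfb1* stretch was 75.2% G and C and held 5 GC boxes, and the *Smad3* stretch (69.2%) held 2, whereas neither held CAGAC. The *Tgfb2* stretch (53.6%) held 2 CAGAC cores, the *Tgfbr2* stretch (58.4%) held 1, and neither held a GC box. Among all 32851 promoters of the same length, 32.7% held GGGCGG and 42.2% held CAGAC. The split of letters did not follow the tissue contrast beyond these 4 genes, since *Ppm1a* (4 GC boxes), *Hivep2* (2) and the first listed start of *Tgfbr1* (2), all lower in tumors, had GC boxes and no CAGAC, while the second listed start of *Tgfbr1* had 1 CAGAC and no GC box. The promoter table had an entry for 7 members, and not for *Tgfb3*, *Smad2* and *Smad7*. No stretch held the Smad palindrome GTCTAGAC, found in 0.167% of promoters, or the AP-1 letters TGANTCA (6.75%), and the Smad letters GGCGCC (9.59%) occurred only at *Tgfbr1*. In the GENCODE M21 annotation, 3 members overlap genes on the other strand, namely *Tgfb2* (*Gm29491*, which covers its start, and *Gm26169*), *Tgfb3* (*Gm48008*, which covers its start, *Ttll5* and *Gm37804*) and *Hivep2* (*Gm26835* and *Gm28289*). The libraries were made with a kit that keeps the strand, but whether the counting used it is not given in the sources used here, so reads of such overlapping pairs may not be told apart.

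The libraries held 4446323 to 8318711 gene counts each, and at this depth *Tgfb2* had 14 to 32 counts in a tumor and *Tgfb1* had 40 to 111 in a lung. *Clic4* itself (ENSMUSG00000037242) was read first to check the labels. In 14-day lungs it ran from 221 to 280 TMM-normalized CPM (read counts scaled to a common library size) in KO and from 590 to 857 in WT mice, a log2 fold change of -1.49 ± 0.09 (SE, edgeR adjusted p = 2.1e-09). The groups did not overlap. By the study's account the knockout removes the region around exon 2, and where in the gene the remaining reads lie was not analysed here. Control lungs differed by a log2 fold change of -1.45 ± 0.11, and tumors, in which the cancer cells keep the gene, by -0.21 ± 0.05 (adjusted p = 0.0343), without overlap. The call in tumors was lost in 9 of 12 fits that left out a tumor and in 3 of 7 alternatives (adjusted p up to 0.115). The other cells in these bulk tissues matter for every level below: fewer cells of a type and less RNA per cell cannot be told apart.

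The first question was how strongly each gene is expressed, which was compared between genes as FPKM, the authors' values scaled by gene length and library size. *Tgfbr2* (ENSMUSG00000032440, chr9:116084293-116175360) had the highest level of the 10 in all 6 groups. Its FPKM was 75.4 ± 5.28 (SD, n = 6) in KO and 71.1 ± 2.43 in WT 14-day lungs, 74.8 ± 4.47 (n = 4) and 72.4 ± 3.42 in KO and WT control lungs, and 50.3 ± 4.13 and 48.1 ± 10.8 in tumors of KO and WT hosts. It stood clear of the next gene in every group. The second place differed by tissue. In lungs it belonged to *Smad7* (ENSMUSG00000025880, chromosome 18), with FPKM means of 29.2 ± 2.88 in KO control, 34.2 ± 1.71 in WT control, 40.4 ± 2.58 in KO 14-day and 35.2 ± 5.19 in WT 14-day lungs. In tumors *Smad7* was ninth, at 9.96 ± 3.70 in KO and 9.82 ± 2.13 in WT hosts, and *Tgfb1* was second, at 21.3 ± 1.22 and 21.2 ± 3.21.

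*Ppm1a* was the third in every lung group, with FPKM means from 26.7 to 28.5, and overlapped with *Smad7* in KO control and WT 14-day lungs. Below it, *Smad2*, *Tgfbr1* and *Hivep2* took the next places in changing order, with means of 17.4 to 21.3, and neighbors among them overlapped in all 4 groups. *Smad3* was seventh in all 4 lung groups. The ligands had the lowest levels in lungs, *Tgfb3* first among them with FPKM means of 9.42 to 10.4. In tumors, every neighbor from the second place to the ninth overlapped with the next, whereas *Tgfb2* was last and clear of all others, at 0.83 ± 0.24 FPKM in KO and 1.17 ± 0.44 in WT hosts. A few short noncoding RNAs (*Rn7s1*, *Rn7s2* and *Rn7sk*) held 58.1 to 70.2% of all FPKM, so tests between samples rest on counts, and FPKM differences between groups are given as descriptions.

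**Figure D1:**
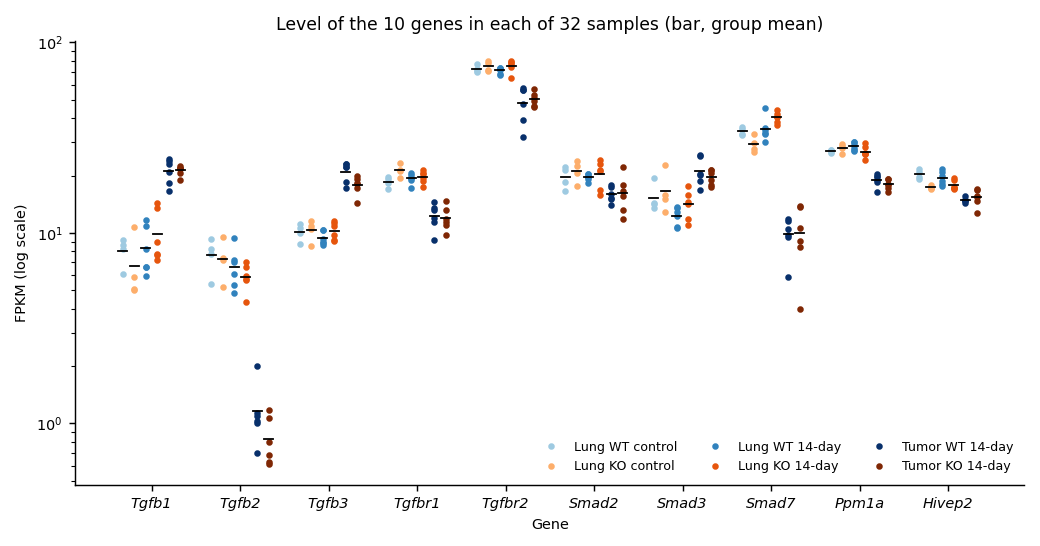
FPKM (log axis) of the 10 genes in all 32 samples, one point per sample, colored by group, with a bar at each group mean. *Tgfbr2* lies highest throughout, and *Tgfb2* and *Smad7* show the widest drop from lungs to tumors, *Tgfb2* from means of 5.88 to 7.66 down to 0.83 and 1.17.

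Ligand make-up set the tissues apart. *Tgfb1*, the most widely expressed ligand, contributed 53.3 ± 3.34% (SD, n = 6) of the summed FPKM of the 3 ligands in tumors of KO hosts and 48.8 ± 4.98% in those of WT hosts, against 27.0 to 37.4% as group means in lungs. Its ranges overlapped, down to 40.8% in tumors of WT hosts and up to 48.3% in KO 14-day lungs. *Tgfb2* supplied 2.10 ± 0.69% and 2.75 ± 1.19% in tumors but 18.5 to 38.0% in any lung. *Tgfb3* made up a similar part in both tissues, with group means of 39.1 to 48.4%. The highest *Tgfb2* share in any tumor was 4.93%, so the tissues did not overlap in the share of this ligand.

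**Figure D2:**
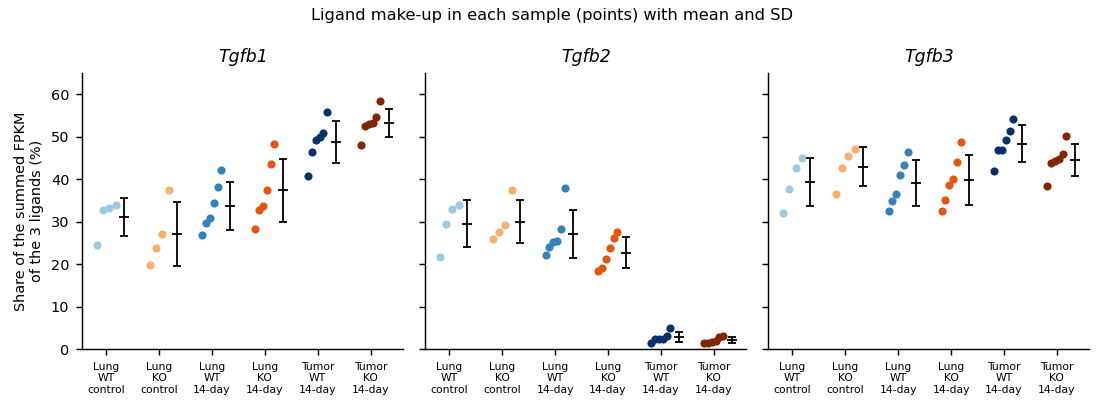
Share (%) of each ligand in the summed FPKM of *Tgfb1*, *Tgfb2* and *Tgfb3* in each sample (points, sorted by value within a group), with mean and SD beside them. *Tgfb2* stays at or under 4.93% in all 12 tumors and at or above 18.5% in all 20 lungs.

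The tissues were then compared by count, with 12 tumors against the 12 lungs of tumor-bearing mice and both genotypes given equal weight. All 10 genes passed an FDR of 0.05, and DESeq2 called the same number. Of them 3 were higher and 7 lower in tumors, in a comparison where 82.1% of all genes tested passed (40.9% higher and 41.2% lower), so the sizes rather than the count are described. *Tgfb1* (ENSMUSG00000002603, chr7:25687002-25705077) had a median of 32.6 CPM in tumors of KO hosts (29.9 to 46.0) and 30.7 in those of WT hosts (23.6 to 42.1), against 13.2 (11.3 to 17.1) and 10.6 (6.83 to 11.8) in KO and WT 14-day lungs. Every tumor lay above every lung, with a log2 fold change of 1.51 ± 0.10. *Tgfb3* (ENSMUSG00000021253, chr12:86056745-86079041), a ligand linked to wound repair and palate formation, rose from 26.8 to 35.9 CPM in lungs to 48.0 to 72.0 in tumors, by 1.05 ± 0.06.

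*Tgfb2* (ENSMUSG00000039239, chr1:186622792-186705989), the ligand that depends most on the co-receptor betaglycan, went the other way. It reached at most 5.83 CPM in any of the 12 tumors and ranged from 14.8 to 33.1 over the lungs, a log2 fold change of -2.43 ± 0.12. Both receptors were lower in tumors. *Tgfbr1* (ENSMUSG00000007613, chr4:47353222-47414931), the only member on the chromosome of *Clic4* and 87.8 Mb from it, ranged from 50.6 to 76.2 CPM against 91.5 to 107, without overlap (-0.62 ± 0.05). *Tgfbr2* fell by 0.50 on the log2 scale (SE 0.06), from 296 to 357 CPM in lungs to 151 to 266 in tumors. The FPKM ratio of *Tgfbr2* to *Tgfbr1* had group means of 3.54 to 3.92 in lungs, and of 4.27 ± 0.74 and 3.95 ± 0.89 in tumors of KO and WT hosts, with overlapping ranges.

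The receptor-regulated Smads moved apart. *Smad3* (ENSMUSG00000032402, chr9:63646767-63757994) was higher in tumors (74.7 to 102 CPM against 42.7 to 64.6, log2 fold change 0.71 ± 0.07), whereas *Smad2* (ENSMUSG00000024563, chromosome 18) was lower with overlapping groups (29.8 to 42.7 against 36.0 to 48.8, -0.23 ± 0.06). As a result the FPKM ratio of *Smad3* to *Smad2* had means of 1.25 ± 0.23 and 1.34 ± 0.26 in tumors of KO and WT hosts. In the 4 lung groups the means were 0.63 to 0.78. The ranges overlapped, with a lowest value of 0.968 in tumors of KO hosts and a highest of 1.01 in KO control lungs. *Smad7* showed the second largest fall, from 45.8 to 71.6 CPM in lungs to 8.60 to 20.8 in tumors (-1.83 ± 0.11). The FPKM ratio of this inhibitor to *Smad3* was 0.50 ± 0.18 and 0.47 ± 0.09 in tumors and 1.80 to 2.93 in lungs. *Ppm1a* (ENSMUSG00000021096, chr12:72757455-72799819) was lower by 0.51 ± 0.04 (44.7 to 52.9 CPM against 62.7 to 75.9), with no overlap. *Hivep2* (ENSMUSG00000015501, chr10:13966075-14151374) changed least, by -0.20 ± 0.04 (114 to 143 against 132 to 168), and its groups overlapped.

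Cell type markers moved with this contrast. Summed CPM of 6 endothelial markers was 129 to 228 in tumors against 2702 to 2971 in 14-day lungs, and all 6 were lower. Summed CPM of 6 fibroblast markers was 1789 to 3830 against 1084 to 1317 (4 higher and 2 lower), and that of 5 macrophage markers was 536 to 1024 against 253 to 348 (all 5 higher). Alveolar type 2 markers, which define lung, summed to at most 0.713 CPM in a tumor and to 7502 or more in a 14-day lung, as the tissue labels say. Tissue and cell composition cannot be told apart in these samples.

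The rest of the pathway was read from a list of 68 further genes, of which 67 could be tested. Of these, 20 were called higher and 40 lower in tumors, where 40.9% of all genes were called higher and 41.2% lower. Their median log2 fold change was -0.31 against 0.00 over all genes. The receptor and co-receptor group had 1 higher and 8 lower of 10, and the target genes had 8 in each direction of 16. The 6 with the smallest p were all lower in tumors: *Bmpr2*, the type II receptor for bone morphogenetic proteins (-2.71 ± 0.04), *Acvrl1*, an endothelial type I receptor (-4.82 ± 0.08), *Eng*, the endothelial co-receptor endoglin (-3.61 ± 0.07), the phosphatase gene *Ppm1f* (-1.57 ± 0.04), the inhibitory Smad gene *Smad6* (-6.05 ± 0.17) and *Smurf2*, a ubiquitin ligase that acts with SMAD7 (-1.37 ± 0.04).

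The next question was whether the host's *Clic4* changed these genes in the tumor. None of the 10 passed an FDR of 0.05 in edgeR, where 2.51% of 13830 tested genes did. An unadjusted p under 0.05 was found for 2 members and for 15.5% of all genes, and DESeq2 called 0 members. *Tgfb2* ran from 2.697 to 5.15 CPM (median 3.37) in tumors of KO hosts and from 3.32 to 5.83 (median 4.95) in those of WT hosts, with a log2 fold change of -0.44 ± 0.20 (edgeR adjusted p = 0.304). The groups overlapped, and the counts behind these values were low. *Smad3* ran from 74.7 to 94.9 (median 77.9) against 79.6 to 102 (median 92.7), a log2 fold change of -0.19 ± 0.08 (adjusted p = 0.265), and *Tgfb3* differed by the same amount, -0.19 ± 0.09 (adjusted p = 0.327). *Tgfbr2* varied more among tumors of WT hosts than in its other groups, at 151, 176, 212, 246, 254 and 266 CPM, and its interval for the KO effect ran from -0.12 to 0.35.

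The genes that link CLIC4 to Smad signaling differed little between the hosts. *Ppm1a* ran from 45.0 to 52.0 CPM (median 48.0) in tumors of KO hosts and from 44.7 to 52.9 (median 48.9) in those of WT hosts, and the 95% interval of the log2 fold change was -0.16 to 0.10. For *Hivep2* the medians were 127 and 123 CPM and the interval was -0.05 to 0.17. *Smad7*, with 50 to 94 counts per tumor, was bounded less tightly, from -0.37 to 0.48.

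Of the further pathway genes, 61 were tested in tumors, and 2 were called higher and 1 lower in KO hosts. Over all genes, 2.51% were called in either direction. *Acvrl1* ran from 17.7 to 25.4 CPM in KO and from 10.5 to 16.4 in WT hosts, a log2 fold change of 0.74 ± 0.13 (edgeR adjusted p = 0.00491). *Ppm1f*, which belongs to the phosphatase family of *Ppm1a*, fell by 0.39 (SE 0.07, adjusted p = 0.00724). *Hivep1*, the Schnurri-1 gene related to *Hivep2*, rose by 0.36 ± 0.09 (adjusted p = 0.0469), and its call was lost with the replicate number as a block (adjusted p = 0.0665), with the block and GC offsets (0.0620) and in 10 of 12 fits that left out a tumor. Summed CPM of 4 T cell markers was 16.8 to 33.7 in KO and 4.52 to 27.1 in WT hosts, with 1 of 4 called (*Cd3d*), and that of 6 endothelial markers was 129 to 228 and 153 to 207, with none of 6 called. None of 3 adipocyte markers was called, but all had higher values in KO hosts (log2 fold changes of 0.69 to 1.13), with sums of 82.1 to 330 CPM against 74.6 to 143. The part of these cells in the result was not tested.

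The 45 pairs of members were compared from sample to sample, and the pair with the largest correlation in tumors, *Tgfbr2* and *Smad3*, was picked after all were seen. After centering each group, Pearson's r of log2 CPM for that pair was -0.82 over 12 tumors and -0.16 over 20 lungs. The 2 tumors lowest in *Tgfbr2* (151 and 176 CPM) had the lowest fibroblast marker sums (2092 and 2184 CPM) and macrophage marker sums (536 and 686 CPM) of the 6 tumors of WT hosts. Among KO hosts, the tumor lowest in *Tgfbr2* (209 CPM) had the lowest fibroblast sum, 1789 CPM, but the next (222 CPM) had the second highest, 3544 CPM, with the lowest macrophage sum, 692 CPM. The part of these cells in the relation was not tested. *Smad2* and *Hivep2* had r = -0.72 in tumors and 0.43 in lungs, and *Tgfb2* and *Tgfb3* -0.64 and -0.17. *Ppm1a* had r = 0.62 with *Tgfbr2* and 0.59 with *Tgfb2* in tumors, against -0.18 and -0.35 in lungs. The receptor *Tgfbr1* and *Smad2* varied together in both tissues (r = 0.60 over tumors and 0.58 over lungs). These values share library and depth and are given as descriptions.

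**Figure D3:**
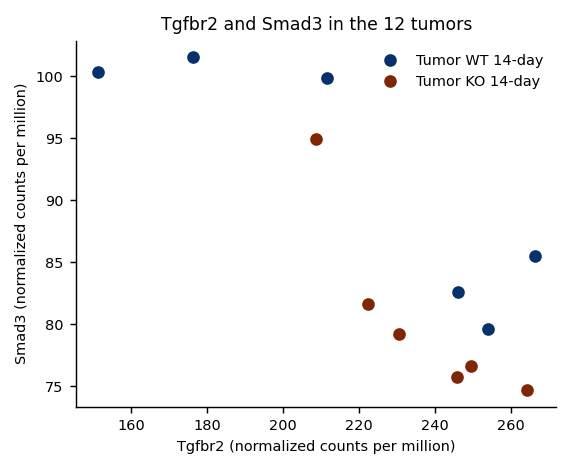
CPM of *Tgfbr2* (x axis) and *Smad3* (y axis) in the 12 tumors, one point per tumor, colored by host genotype. Tumors with low *Tgfbr2*, down to 151 CPM, had high *Smad3*, up to 102 CPM, and the host genotypes overlapped on the *Tgfbr2* axis.

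Pre-metastatic lungs were compared by genotype next, to ask whether the host's *Clic4* changed these genes at 14 days. No member passed the FDR of 0.25 used for lungs, where 0.861% of 16029 genes did. An unadjusted p under 0.05 was reached by 2 members (8.34% of all genes). DESeq2 called 262 genes in all, 1 of them a member. *Tgfb1* had 11.3 to 17.1 CPM (median 13.2) in KO and 6.83 to 11.8 (median 10.6) in WT lungs, a log2 fold change of 0.47 ± 0.15 (edgeR adjusted p = 0.304). Only 1 of the 6 KO lungs fell within the WT range. *Smad7* had 54.4 to 71.6 (median 60.6) against 45.8 to 62.8 (median 49.2), a difference of 0.24 ± 0.09 (adjusted p = 0.430 by edgeR and 0.241 by DESeq2, which called it). DESeq2 gave no adjusted p for *Tgfb1* in this comparison.

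The remaining members differed by at most 0.13 on the log2 scale between the genotypes at 14 days. *Tgfbr2* differed by 0.09 ± 0.05, and *Ppm1a*, with 62.7 to 74.3 CPM in KO and 68.0 to 75.9 in WT lungs, by -0.09 ± 0.05 (interval -0.19 to 0.01). Among 67 further pathway genes, 3 were called higher in KO lungs and none lower, where 0.861% of all genes were called in either direction. *Pmepa1*, a TGF-β target that restrains the pathway, rose by 0.53 ± 0.13 (adjusted p = 0.111). *Col1a1*, the collagen I gene, rose by 0.65 ± 0.18 (adjusted p = 0.205) and *Ltbp4*, which encodes a latent TGF-β binding protein, by 0.36 ± 0.10 (adjusted p = 0.245). All 3 calls were lost with only the compared groups in the fit (adjusted p = 0.272 to 0.288), that of *Ltbp4* also with the replicate block (0.261), and with a lung left out they were lost in 1, 8 and 14 of 20 fits for *Pmepa1*, *Col1a1* and *Ltbp4*. At 14 days 2 of 3 heart muscle markers were called lower in KO lungs, with sums of 389 to 486 CPM against 507 to 795. Of 6 fibroblast markers, 4 had positive and 2 negative log2 fold changes, and 1 was called, *Col1a1* itself. Their sums were 1161 to 1317 CPM in KO and 1084 to 1239 in WT lungs. The part of these cells in these results was not tested.

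In control lungs, again no member passed (0.973% of genes did), with 3 members under an unadjusted p of 0.05 (11.6% of genes). DESeq2 called 1 member, but also more genes in all than edgeR (counts below). *Tgfb1* was 6.37, 8.69, 10.1 and 10.4 CPM in KO and 10.3, 11.3, 11.6 and 13.9 in WT lungs, a log2 fold change of -0.41 ± 0.18 (edgeR adjusted p = 0.404). The lowest WT lung lay just under the highest KO lung. *Hivep2* was 130, 132, 144 and 145 CPM in KO and 145, 164, 165 and 169 in WT lungs, -0.22 ± 0.07 (adjusted p = 0.272 by edgeR and 0.190 by DESeq2). *Tgfbr1* went in the other direction, at 95.1, 104, 111 and 119 in KO against 91.1, 91.8, 98.1 and 103 in WT lungs (0.16 ± 0.06, adjusted p = 0.348), a difference of 0.06 with GC offsets. Of the further genes, *Bmpr1b*, a bone morphogenetic protein receptor, was higher (0.55 ± 0.14), and *Ltbp4* (-0.43 ± 0.13) and *Ski*, a Smad corepressor (-0.28 ± 0.08), were lower. With offsets for GC content these 3 calls were lost (adjusted p = 0.567 to 0.673), with log2 fold changes of 0.46 for *Bmpr1b*, -0.17 for *Ltbp4* and -0.19 for *Ski*. They were also lost without the filter and with the replicate block, and in 6, 13 and 13 of 20 fits that left out a lung. In this comparison fold change fell by 0.14 on the log2 scale for each 10% of GC across all genes. No cell type marker was called here, but the summed CPM of 3 B cell markers (13.6 to 39.6 in KO, 43.6 to 59.5 in WT) and of 3 adipocyte markers (23.2 to 44.6 against 14.2 to 21.3) did not overlap, and all T cell, NK cell, B cell and platelet markers had negative log2 fold changes. Their part in these results was not tested.

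With both lung settings averaged, *Hivep2* was the only member called, lower in KO lungs with a log2 fold change of -0.16 ± 0.05 (edgeR adjusted p = 0.185), where 1.09% of all genes were called lower. It was 130 to 155 CPM over the 10 KO lungs and 133 to 169 over the 10 WT lungs. The call was lost without the filter on low counts (adjusted p = 0.278), with GC offsets and the replicate block together (0.296) and in 4 of 20 fits that left out a lung, namely KO control replicates 1 and 2 and WT control replicates 2 and 3 (adjusted p = 0.272 to 0.347). *Ppm1a*, the other link to CLIC4, differed by -0.02 ± 0.04. Heart muscle markers moved with genotype as well: 2 of 3 were called lower in KO lungs, and their summed CPM was 389 to 536 in KO and 507 to 795 in WT lungs. In addition, 1 of 6 endothelial markers was called lower (*Tie1*, -0.22) and 1 of 5 macrophage markers higher (*Mrc1*, 0.22). Their part in the *Hivep2* result was not tested. *Bmpr1b* was higher (0.38 ± 0.09), whereas *Lrrc32* (-0.42 ± 0.13) and *Nrros* (-0.18 ± 0.06), which encode anchors for latent TGF-β, were lower. The *Bmpr1b* call was lost with GC offsets and the block together (adjusted p = 0.258). The calls of *Lrrc32* and *Nrros* were lost with GC offsets, without the filter, with the replicate block and in 13 and 14 of 20 fits that left out a lung.

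The response of the lung to a distant tumor was examined within each genotype. In WT lungs no member passed (2.33% of genes did), none had an unadjusted p under 0.05 (11.8% of genes had), and DESeq2 called 0. *Tgfb1* was 6.83 to 11.8 CPM (median 10.6) at 14 days against 10.3, 11.3, 11.6 and 13.9 in controls (-0.22 ± 0.16, and -0.14 without WT 14-day replicate 5 or with GC offsets and the replicate block), and *Smad7* was 45.8 to 62.8 (median 49.2) against 49.8, 54.2, 56.2 and 61.2.

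In KO lungs, 2 of the 10 members were called, both higher at 14 days, where 0.78% of all genes were called higher. *Tgfb1* was 11.3, 11.8, 12.9, 13.6, 16.4 and 17.1 CPM at 14 days and 6.37, 8.69, 10.1 and 10.4 in controls, a log2 fold change of 0.66 ± 0.17 (edgeR adjusted p = 0.173). The groups did not overlap, which held for no other member between any of the groups compared within a tissue and for 2.18% of all genes here. On the FPKM scale they did overlap, at 7.21 to 14.4 against 5.04 to 10.7. *Smad7* was 54.4, 54.9, 60.3, 60.8, 61.3 and 71.6 CPM against 43.0, 46.1, 46.2 and 58.6, a change of 0.33 ± 0.10 (adjusted p = 0.247), and 1 control lung lay among the 14-day lungs.

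The *Tgfb1* call was lost in 5 of 20 fits that left out a lung, those without KO 14-day replicate 1 or 3 or without KO control replicate 2, 3 or 4 (adjusted p = 0.278 to 0.483, log2 fold change 0.52 to 0.73). The *Smad7* call lay at the limit and was lost with RLE size factors, without the filter, with GC offsets (0.28, adjusted p = 0.338), with only the compared groups and in 14 of 20 fits that left out a lung. The other ligands did not follow *Tgfb1*. *Tgfb2* was 14.8 to 25.9 CPM (median 22.7) at 14 days against 24.0, 24.2, 27.8 and 32.3 (-0.28 ± 0.16), and *Tgfb3* had an interval of -0.19 to 0.19. Receptors, *Smad2*, *Smad3*, *Ppm1a* and *Hivep2* each differed by under 0.1 on the log2 scale.

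Markers of blood cells were read beside these values, and among them only neutrophil and platelet markers were called. Summed CPM of 4 neutrophil markers was 23.3 to 239 in KO lungs at 14 days against 33.3 to 58.1 in controls, with 1 of 3 tested called (*Cxcr2*). In WT lungs it was 51.8 to 228 against 24.1 to 45.9, with 3 of 3 called. Summed CPM of 3 platelet markers was 27.9 to 58.2 against 22.5 to 30.2 in KO lungs (1 of 3 called, *Itga2b*) and 29.7 to 59.0 against 18.4 to 43.8 in WT lungs (0 of 3). None of 4 T cell, 2 NK cell and 3 B cell markers was called in either genotype. In WT lungs all of these had negative log2 fold changes, with a median of -0.65 for B cell markers, whereas in KO lungs all 3 B cell markers had positive ones (median 0.35). No platelet marker was at 0 in these groups, and *Ly6g* was at 0 in KO control lungs. Platelets are rich in TGF-β1, and the part of these cells in the *Tgfb1* result was not tested.

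**Figure D4:**
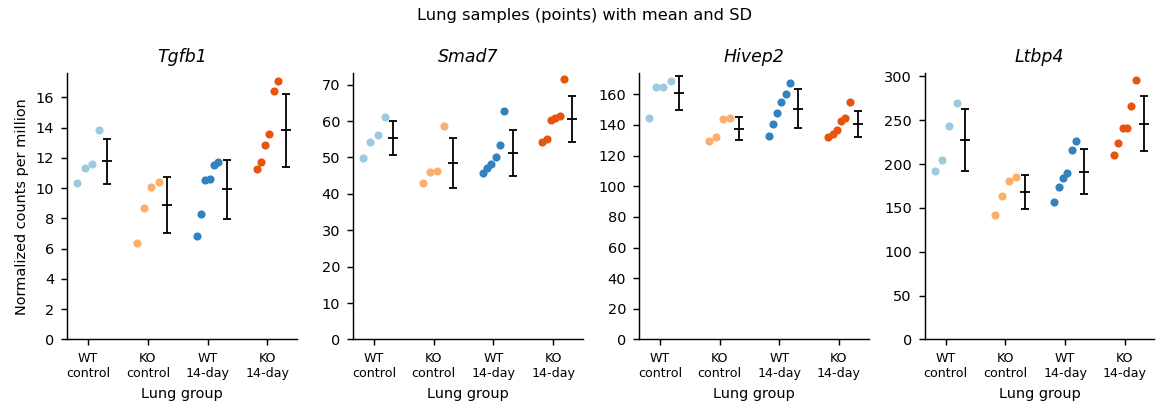
CPM of *Tgfb1*, *Smad7*, *Hivep2* and *Ltbp4* in the 20 lungs (points, sorted by value within a group) with mean and SD beside them, axes from 0. KO 14-day lungs lie at 11.3 to 17.1 CPM of *Tgfb1*, above all KO controls (6.37 to 10.4), whereas WT 14-day lungs (6.83 to 11.8) overlap their controls.

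Whether the response differed between genotypes was tested as an interaction. No member passed (0.0499% of genes, 8 in all, did), and 2 had an unadjusted p under 0.05 (8.53% of genes). DESeq2 called 195 genes in all, 1 of them a member, *Smad7*. The difference in response, KO minus WT, was 0.88 ± 0.23 for *Tgfb1* (edgeR adjusted p = 0.300) and 0.42 ± 0.14 for *Smad7* (adjusted p = 0.407 by edgeR and 0.225 by DESeq2). With GC offsets these were 0.85 (adjusted p = 0.694) and 0.28 (0.841). The intervals without them, 0.42 to 1.34 and 0.15 to 0.69, are per gene and not adjusted for the number of genes. DESeq2 gave no adjusted p for *Tgfb1* here. *Hivep2* and *Ppm1a* had intervals of -0.06 to 0.29 and -0.30 to 0.01.

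**Figure D5:**
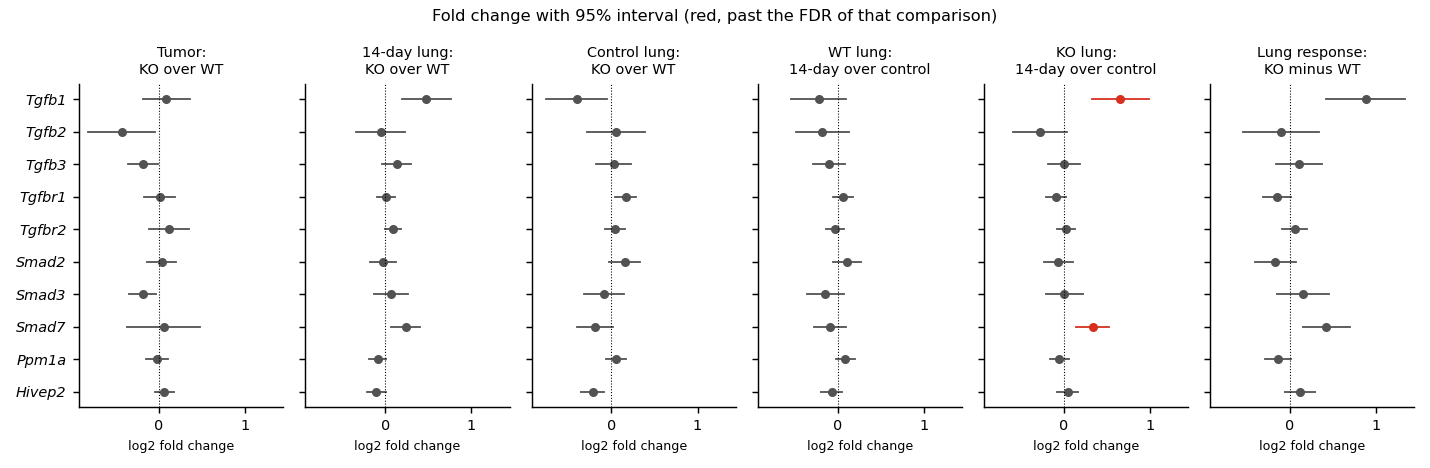
Log2 fold change (point) and unadjusted 95% interval from a normal distribution (line) of the 10 genes in 6 comparisons. Red marks genes that passed the FDR of the comparison. Only *Tgfb1* (0.66) and *Smad7* (0.33) in KO lungs are red, and the widest intervals belong to genes with few counts.

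Of the 67 further genes, *Ltbp4* alone passed in the interaction (0.79 ± 0.16, edgeR adjusted p = 0.205). It was 210 to 296 CPM (median 241) in KO 14-day lungs, 142, 164, 180 and 186 in KO controls, 157 to 227 (median 187) in WT 14-day lungs and 192, 205, 243 and 269 in WT controls. Thus it was above all controls in KO lungs (0.56 ± 0.12, adjusted p = 0.106), while the WT groups overlapped. *Ltbp4* transcripts are 62.2% G and C, and with GC offsets the interaction was 0.48 with an adjusted p of 0.482. The interaction call was also lost with the replicate block (adjusted p = 0.303) and in 11 of 20 fits that left out a lung, whereas the call within KO lungs was lost without KO control replicate 2 or 3 (adjusted p = 0.278 and 0.316) and at an FDR of 0.05. *Eng* was also called higher in KO lungs (0.29 ± 0.08), a call lost in 5 of 20 fits that left out a lung (adjusted p up to 0.496). In WT lungs 4 further genes were called higher, *Ppm1k* (0.43 ± 0.11), *Zfyve9*, the SARA anchor for receptor-regulated Smads (0.19 ± 0.06), *Bmpr1a* (0.19 ± 0.06) and *Smad5* (0.16 ± 0.05), and 2 lower, *Col1a1* (-0.73 ± 0.20) and the target gene *Id1* (-0.56 ± 0.17). Over all genes, 2.33% were called in WT lungs in either direction. The calls of *Zfyve9*, *Id1*, *Bmpr1a* and *Smad5* were lost with GC offsets (adjusted p = 0.306 to 0.560), where *Bmpr1a* and *Smad5* each fell to 0.11. With a lung left out, calls were lost in 3 of 20 fits for *Ppm1k*, 4 for *Col1a1*, 7 for *Id1*, 9 for *Zfyve9* and 12 each for *Bmpr1a* and *Smad5*. Fibroblast markers, *Col1a1* among them, had negative log2 fold changes in 5 of 6 (1 called, *Col1a1*), with sums of 1084 to 1239 CPM against 1201 to 1383 in controls. Of 3 alveolar type 2 markers 1 was called lower (*Sftpb*), and 3 adipocyte markers, none called, had log2 fold changes of 0.43 to 0.94. The part of these cells was not tested.

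The host effect was last compared between tissues, as KO over WT in tumors minus the same in 14-day lungs. No member passed an FDR of 0.05 (1.06% of genes did), 1 had an unadjusted p under 0.05 (12% of genes) and DESeq2 called 0. The member nearest to passing was *Tgfb3*, at -0.33 ± 0.12 (edgeR adjusted p = 0.223), followed by *Smad3* (-0.27 ± 0.14) and *Tgfb1* (-0.40 ± 0.21). *Acvrl1* was the only further gene called, with a difference of 0.76 ± 0.14 (adjusted p = 0.00439). Its 14-day lungs had medians of 482 CPM in KO and 518 in WT mice.

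For each member, the genes whose group-centered log2 CPM ran closest over all 32 samples were taken by Pearson's r. *Tgfbr2* had the closest, *Dpt*, which encodes the matrix protein dermatopontin (r = 0.87), then *Gpm6b* (0.84) and *Ctsh* (0.84). *Smad3* was nearest to *Nolc1*, a nucleolar gene (0.82), *Eif4h* (0.73) and *Fam163b* (0.73). *Ppm1a* was nearest to *Csrp2* (0.81), *Lrig3* (0.69) and *RP23-148L8.3* (0.65), and *Smad7* to *Pnkd* (0.80), *Nelfb* (0.78) and *C87436* (0.77). *Tgfb1* ran closest to *Plxnd1*, a semaphorin receptor gene (0.76), *Nfic* (0.74) and *Anxa11* (0.72), and *Hivep2* to *Clasp1* (0.75), *Myo1e* (0.73) and *Sik3* (0.72). For *Tgfb2* they were *RP23-134H19.4* (0.72), *Ank3* (0.68) and *Slc20a1* (0.64), for *Tgfb3* *Lrrk1* (0.69), *Gm1980* (0.68) and *Pdhx* (0.68), for *Tgfbr1* *D15Ertd621e* (0.70), *Dmxl1* (0.70) and *Rab18* (0.67), and for *Smad2* *Gm38147* (0.72), *Wdr46-ps* (0.66) and *Tcte2* (0.66). No member was among the 3 nearest of another, and these values share library and depth.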

How the data were processed

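Paired-end reads of mRNA libraries were aligned to mm10 (GRCm38) by the authors with STAR and quantified per gene with RSEM. The deposited expected counts are whole numbers without normalization, and the deposited FPKM values are scaled for gene length and library size. Counts were normalized by TMM, filtered with filterByExpr and tested with the quasi-likelihood F test of edgeR 4.0.16 (R 4.3.3), in one fit each for the 12 tumors, the 20 lungs and, for contrasts across tissues, all 32 samples. P-values were adjusted by Benjamini-Hochberg over all genes tested and called at an FDR of 0.05, or 0.25 within lungs. Standard errors were derived from the log2 fold change and F. The 95% intervals are these errors scaled by a normal distribution, and are unadjusted. They are narrower than the F test allows, so some exclude 0 where its p is above 0.05. CPM come from one scaling of all 32 samples. The members and gene lists were chosen with earlier results of these data known. The text names the 10 members, *Clic4*, every called pathway gene (the 6 of smallest p where more were called) and the 3 genes most like each member. Marker genes named singly were chosen after their values were seen. Alternatives were DESeq2 1.42.0, RLE size factors, dropping the filter, a minimum of 10 counts per sample, a replicate block, GC offsets, an FDR of 0.05 in lungs, CPM for FPKM, and leaving out each sample. Fits with only the compared groups, and GC offsets with the block, were added after seeing the data. Fits were tested on simulated counts, and every replicate pair differed by more than sampling noise. Intervals cover the spread between samples only.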

Additional observations from a re-analysis of the deposited data

Results flagged for a closer look

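Among 66 sets of values (*Clic4* and the 10 members in 6 groups), 4 held a sample far from the others by Dixon's ratio in CPM, and chance flags about 1 in 20 such sets. Replicate 1 had 46.0 CPM of *Tgfb1* among tumors of KO hosts, where the next was 33.0. Replicate 4 had 94.9 CPM of *Smad3* in the same group, where the next was 81.6. Replicate 5 had 5.15 CPM of *Tgfb2* there, next to 3.55. Replicate 5 of the WT 14-day lungs had 33.1 CPM of *Tgfb2*, next to 22.9. On the FPKM scale, *Tgfb1* in tumors of KO hosts ran from 19.1 to 22.5.

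Among *Clic4*, the 10 members and the 68 further pathway genes, effects differed between groups by a test of the difference itself in 3 genes, none of them a member. The host effect on *Clic4* was less negative by 1.27 on the log2 scale in tumors than in 14-day lungs, that is, smaller in size. That on *Acvrl1* was higher by 0.76 in tumors. The response of *Ltbp4* to a tumor was larger by 0.79 in KO than in WT lungs. That call was lost with GC offsets (0.48), with the replicate block and in 11 of 20 fits that left out a lung.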

How the results depend on the processing

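The labels do not say whether same-numbered samples are paired. Their deviations had correlations of -0.341 to 0.214 over the 7 pairs of groups, never all above 0.1. Between tumors and 14-day lungs of KO mice they were 0.0369 to 0.16. Such weak correlations cannot exclude shared mice, and the main fits treated all samples as independent. The limits lie mainly in the lungs, where calls were made at an FDR of 0.25 and counts of called genes moved widely with the setting, and in *Tgfb2* in tumors and *Tgfb1* in lungs, which rest on few counts. The 44 pairs of gene and comparison under 0.1 on the log2 scale were not followed across settings, so the signs of such values are not checked. The tissue contrast of the 10 members was called in every fit. The cause of the changes below was not tested.

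Between tumors of KO and WT hosts, 347 genes were called, against 549 by DESeq2 and 203 to 488 with a tumor left out, and no member was called in any of these. *Clic4* in tumors lost its call without the filter (adjusted p = 0.115), with the replicate block (0.106), with GC offsets and the block (0.113) and with 9 of 12 tumors left out in turn. For the 14-day lungs, 138 genes were called, against 262 by DESeq2, 41 with only the compared groups, 15 at an FDR of 0.05 and 69 to 218 with a lung left out. Members called there numbered 0, against 1 by DESeq2 and 0 to 1 with a lung left out.

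For control lungs, 156 genes were called, against 462 by DESeq2, 103 with RLE size factors, 18 without the filter, 252 with at least 10 counts, 98 with the replicate block, 14 with GC offsets, 6 with GC offsets and the block, 1189 with only the compared groups, 3 at an FDR of 0.05 and 5 to 468 with a lung left out. No member was called, against 1 by DESeq2, 1 with only the compared groups and 0 to 1 with a lung left out. With settings averaged, 350 genes were called, against 550 by DESeq2, 140 without the filter, 161 with GC offsets, 126 with GC offsets and the block, 28 at an FDR of 0.05 and 86 to 961 with a lung left out. The call of 1 member, *Hivep2*, became 0 without the filter, with GC offsets and the block and at an FDR of 0.05, and 0 to 1 with a lung left out.

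In the WT response, 373 genes were called, against 143 without the filter, 582 with the replicate block, 149 with GC offsets, 0 at an FDR of 0.05 and 43 to 753 with a lung left out. In the KO response, 169 genes were called, against 321 by DESeq2, 104 without the filter, 513 with the block, 352 with GC offsets and the block, 6 at an FDR of 0.05 and 9 to 299 with a lung left out. Of its 2 members, 1 was left with RLE size factors, without the filter, with GC offsets, with GC offsets and the block and with only the compared groups, 0 at an FDR of 0.05 and 0 to 2 with a lung left out. The member left in the 5 fits with 1 was *Tgfb1*.

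In the interaction, 8 genes were called, against 195 by DESeq2, 1 with the replicate block, 1 with GC offsets, 1 with both, 1 at an FDR of 0.05 and 1 to 127 with a lung left out, and members called were 1 by DESeq2 and 0 to 1 with a lung left out. *Tgfb1* passed there without KO control replicate 1 (adjusted p = 0.204) or WT 14-day replicate 3 (0.209). The *Tgfb2* interaction was -0.10 and changed sign without WT 14-day replicate 5 (0.036), within a range of -0.17 to 0.036 with a lung left out. For the host effect across tissues, 179 genes were called, against 303 by DESeq2 and 114 to 323 with a sample left out. The tissue contrast called 13664 to 13780 genes with a sample left out. Among results for single genes, 547 kept direction and side of the threshold, 58 lost it and 4 gained it, leaving out single samples aside.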
